A study of Homo sapiens with 6 samples.

Results

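The 10 genes of the RNA interference machinery described here were followed through a knockdown experiment in an oesophageal cancer cell line: DROSHA, DGCR8, XPO5, DICER1, AGO1, AGO2, AGO3, AGO4, TNRC6A and TNRC6B. They were taken by gene symbol from a table of 58735 genes that holds 1 value per gene and library. The set was chosen with earlier results of these data known. All 10 of 10 were found and all 10 passed the filter on low values, so they are 10 of the 14352 genes tested.

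The measurements are RNA-seq of KYSE30, an established human line from an oesophageal squamous cell carcinoma. Cells of the si-RAB23-1 and si-RAB23-9 groups had each been given a different siRNA against RAB23, a small GTPase of membrane traffic, and cells of the si-NC group a control siRNA, in each case at 100 nM and with the lipid reagent HiPerFect. Each group has 2 libraries, which the series calls biological replicates without saying that they came from separate cultures, so p-values here cover the spread from library to library, which may be technical. Recovered reads numbered 17211025 and 22789183 with si-RAB23-1, 19179885 and 17959115 with si-RAB23-9, against 24178125 and 19752125 with si-NC. Cells of every group, si-NC included, carried a transfected siRNA, and an untransfected group was not analysed here. For the siRNAs, the sequences and the hours until harvest were in none of the sources used here. In such bulk samples, fewer cells of a type and less RNA per cell cannot be told apart.

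In animal cells most microRNAs start as hairpins within long nuclear transcripts. The Microprocessor, made of the ribonuclease DROSHA and its RNA-binding partner DGCR8, frees the hairpin, and exportin 5 (XPO5) carries it to the cytoplasm. There the ribonuclease Dicer (DICER1) cuts it to a short duplex, an Argonaute protein (AGO1 to AGO4) keeps one strand as a guide, and a GW182 protein (TNRC6A, TNRC6B) links the Argonaute on its target to the enzymes that remove the poly(A) tail and the cap. A synthetic siRNA enters at the Argonaute step, and of the human Argonautes AGO2 is the one best known for cutting a fully matched target.

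Values are FPKM, fragments scaled to the length of the gene and the size of the library. Tests were made with limma on log2(FPKM + 1) for all 14352 genes, and "rose" and "fell" are used of a Benjamini-Hochberg adjusted p under 0.05. All log2 fold changes are on that log2(FPKM + 1) scale, which understates changes of genes with low values. The targeted gene checked the labels first. RAB23 had 1.03 and 1.10 FPKM with si-RAB23-1, 1.18 and 1.27 FPKM with si-RAB23-9, and 3.27 and 3.33 FPKM with si-NC. It was thus lower in every library of both RAB23 siRNAs, at 0.322 and 0.372 times the si-NC mean.

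Short sequence matches were looked up in several of the 10 genes. An earlier analysis of these same data had pointed to the 7-mers GACATAT and AAGTTAA as common in the 3' untranslated regions (3' UTRs) of genes lower with si-RAB23-1 and with si-RAB23-9, so the 7-mers are no independent support for anything said of these genes. They were searched on the transcript strand in the longest annotated 3' UTR of each gene (GENCODE release 29, GRCh38). All copies found in the 10 genes are printed, since the changes of these genes are set against them, as 30 bases each with the 7-mer in capitals. The copies of GACATAT were 2 in DICER1 and 2 in AGO4.
DICER1, chr14:95089465-95089494, minus strand: aataaaccttaGACATATcacacctaaaat
DICER1, chr14:95088017-95088046, minus strand: agtacgagttaGACATATgaaatggttatg
AGO4, chr1:35854610-35854639, plus strand: cagtcagaaaaGACATATatttccatgcct
AGO4, chr1:35857352-35857381, plus strand: gccttgctattGACATATtcatgctctttc

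The copies of AAGTTAA were 2 in AGO3, 3 in TNRC6B, 1 in DROSHA and 1 in AGO1.
AGO3, chr1:36059408-36059437, plus strand: tttttttttttAAGTTAAacatgaaattca
AGO3, chr1:36061459-36061488, plus strand: ttaaaatatggAAGTTAAagattttaattt
TNRC6B, chr22:40327346-40327375, plus strand: aaacgtcaagcAAGTTAAtatgcttatgtc
TNRC6B, chr22:40328173-40328202, plus strand: agcagtgttgcAAGTTAAggttccaaacca
TNRC6B, chr22:40332119-40332148, plus strand: tgctgacctgaAAGTTAAtctttaggtcga
DROSHA, chr5:31400729-31400758, minus strand: gaacctttaagAAGTTAAtgaacagacttc
AGO1, chr1:35926246-35926275, plus strand: ggttgctactcAAGTTAAaaagactgggag

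DGCR8, XPO5, AGO2 and TNRC6A held neither 7-mer. A match is a description of the letters and not evidence of a site. Of 10911 tested genes with an annotated 3' UTR, 7.69% held GACATAT and 16.9% held AAGTTAA. Chance matches grow with length, and among 3' UTRs within 20% of the same length GACATAT was held by 16.1% for DICER1 (4270 bases) and 16.2% for AGO4 (4285 bases). AAGTTAA was held by 87.1% of 3' UTRs as long as that of AGO3 (16755 bases), by 75% for TNRC6B (12567 bases) and by 66.2% for AGO1 (10921 bases), against 8.19% for DROSHA (935 bases).

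At baseline the 10 transcripts differed widely in level. In si-NC cells AGO2 was highest (mean 19.2 ± 0.588 FPKM, SD, n = 2), followed by TNRC6A, DGCR8, DROSHA, DICER1, XPO5, AGO1, AGO4, TNRC6B and AGO3 (3.57 ± 0.0864 FPKM). The libraries of DICER1 overlapped with those of DROSHA, and those of XPO5 with those of DICER1, while the other neighbours stood apart. AGO2 was highest in all 3 groups, while the lowest was TNRC6B with si-RAB23-1 and AGO3 with si-RAB23-9 and with si-NC. The summed FPKM of the 10 genes was 98.2 and 95.5 with si-RAB23-1, 102.0 and 100.8 with si-RAB23-9, against 99.3 and 101.6 with si-NC.

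**Figure D1:**
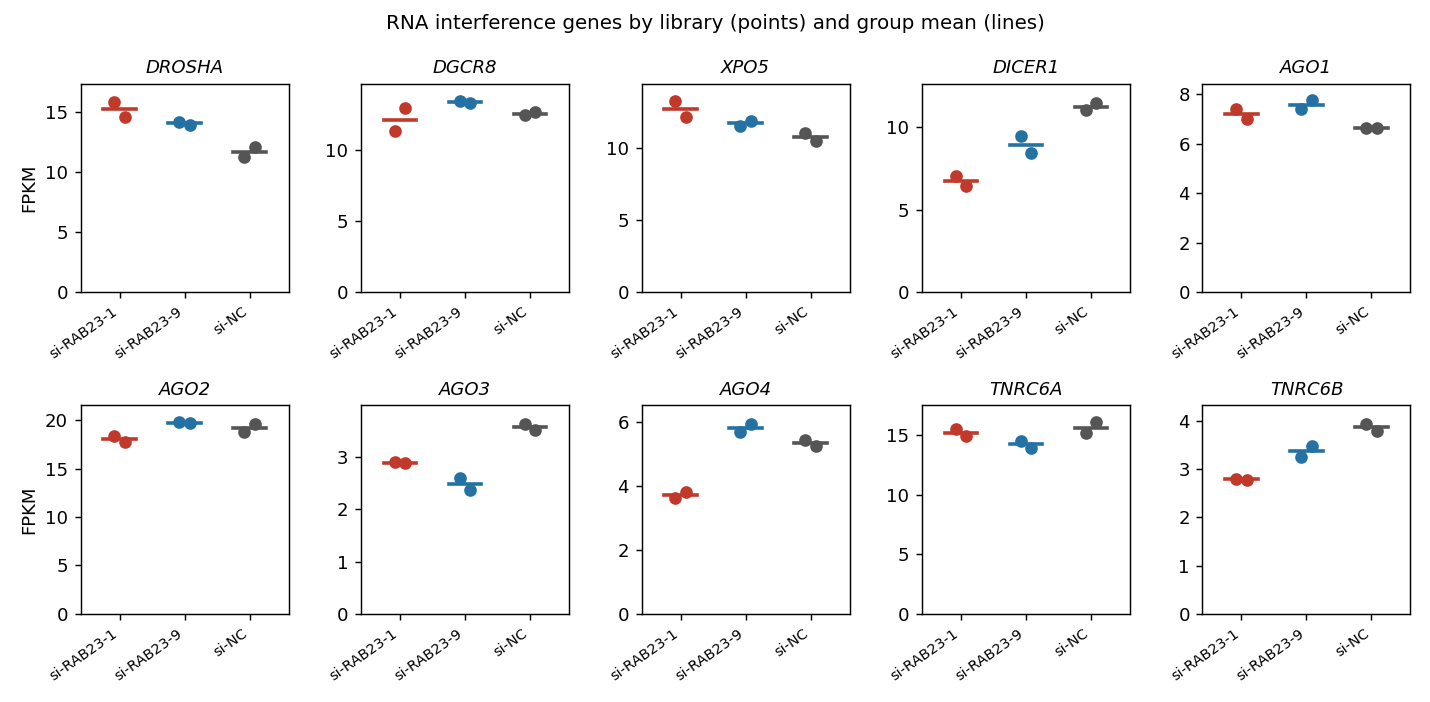
FPKM of each of the 10 genes in the si-RAB23-1, si-RAB23-9 and si-NC libraries (points, 2 per group) with the group mean (line); every axis starts at 0. DICER1 is lower in both RAB23 siRNA groups, AGO4 is lowest in the si-RAB23-1 libraries (3.63 and 3.81 FPKM), and AGO3 is lowest in the si-RAB23-9 libraries (2.605 and 2.379 FPKM).

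With si-RAB23-1, 5 of the 10 genes passed the test against si-NC: DROSHA and XPO5 rose, and DICER1, AGO4 and TNRC6B fell. With si-RAB23-9, 3 of the 10 passed: DROSHA rose, and DICER1 and AGO3 fell. Over all genes tested, 15.4% were called with si-RAB23-1 (8.13% higher, 7.26% lower) and 13.3% with si-RAB23-9 (7.56% higher, 5.69% lower). With si-RAB23-1 these were 1167 genes higher and 1042 lower, against 1622 higher and 2178 lower by voom, a limma method run on the recovered reads, with library totals. The 2 comparisons share the si-NC libraries, so their values are given side by side and no agreement between them is counted as a result. In the direct comparison of si-RAB23-9 with si-RAB23-1, AGO4 and DICER1 were higher with si-RAB23-9, where 21% of all genes were called (11.1% higher, 9.89% lower). None of the 10 was lower with si-RAB23-9 by limma, against 1 at an unadjusted p under 0.05 and 1 by voom, in both cases AGO3. Voom on library totals called more of the 10, beside the limma calls. These were AGO2 and AGO3 lower with si-RAB23-1, and AGO1 higher and TNRC6A and TNRC6B lower with si-RAB23-9. AGO2, DGCR8 and TNRC6B were called higher with si-RAB23-9 than with si-RAB23-1. Voom with median-of-ratios sizes did not call AGO2 for si-RAB23-1, nor DGCR8 between the siRNAs. Over all genes it called 1879 higher and 1915 lower for si-RAB23-1, a more even split than on library totals. The library size behind FPKM was 0.963 and 0.976 times the recovered reads for the si-RAB23-1 libraries, against 0.985 to 0.990 for the others. Its part in these calls was not tested. The median log2 fold change of the 10 genes was -0.06 with si-RAB23-1, 0.06 with si-RAB23-9 and 0.09 for si-RAB23-9 minus si-RAB23-1, and the medians of all genes were 0.0083, 0.0060 and 0.00023.

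Both libraries of a group lay above or below both libraries of the other group for 8 of 10 genes with si-RAB23-1 against si-NC (3 above, 5 below), and for 60.2% of all genes (31.7% above, 28.5% below). The same count was 10 of 10 with si-RAB23-9 against si-NC (6 above, 4 below), against 61.2% of all genes (32.5% above, 28.7% below), and 9 of 10 between si-RAB23-9 and si-RAB23-1 (5 above, 4 below), against 63.2% (32.1% above, 31.2% below). With 2 libraries against 2, such separation is thus common in this table.

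**Figure D2:**
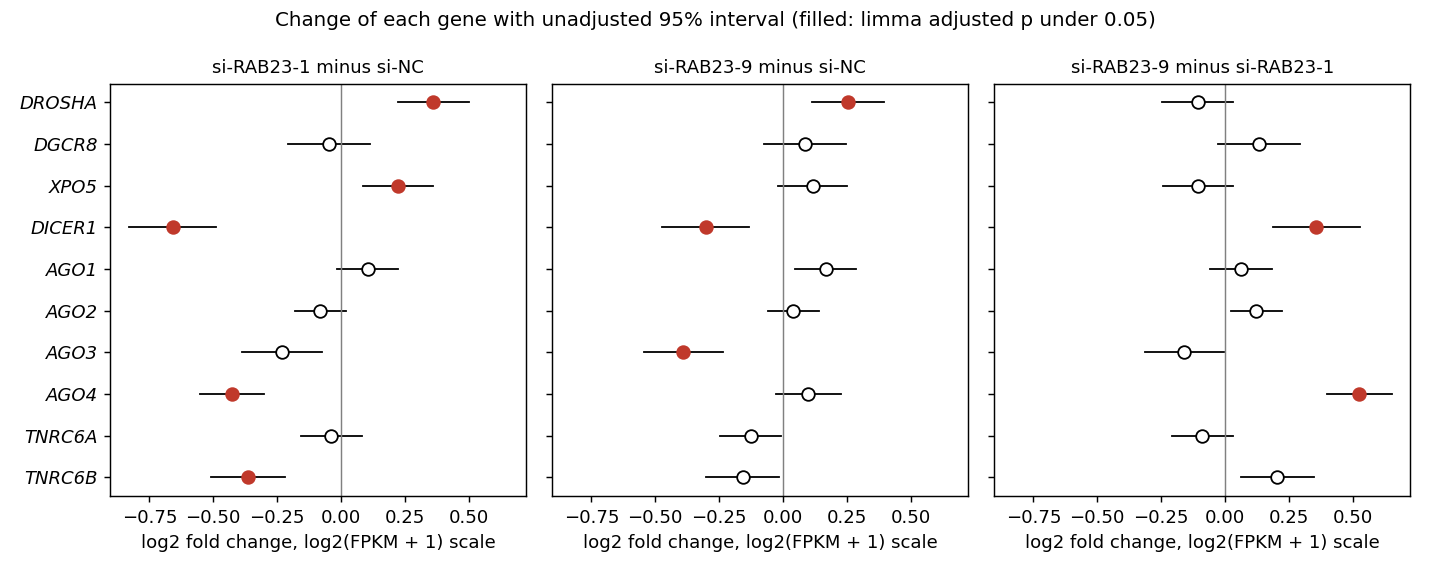
Log2 fold change of each gene on the log2(FPKM + 1) scale with its unadjusted 95% interval, for si-RAB23-1 (left) and si-RAB23-9 (middle) against si-NC, and for si-RAB23-9 against si-RAB23-1 (right); filled points have a limma adjusted p under 0.05. DICER1 stands farthest left with si-RAB23-1 (-0.66) and AGO4 farthest right in the direct comparison (0.52).

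Of the Microprocessor genes, DROSHA rose with both siRNAs, and DGCR8 passed no limma test with all libraries in the fit. DROSHA (ENSG00000113360, chr5:31400497-31532196, minus strand) had 15.9 and 14.6 FPKM with si-RAB23-1, 14.2 and 13.9 FPKM with si-RAB23-9, and 11.2 and 12.1 FPKM with si-NC. All 4 libraries of the RAB23 siRNAs lay above both si-NC libraries. The means were 1.31 and 1.21 times that of si-NC. The limma log2 fold change was 0.36 (SE 0.0563, adjusted p = 0.0148) with si-RAB23-1 and 0.25 (SE 0.0563, adjusted p = 0.0404) with si-RAB23-9, and the direct difference between the siRNAs missed the threshold (-0.11, 95% interval -0.25 to 0.03, adjusted p = 0.233). With si-RAB23-1 the limma call was lost without si-NC replicate 1 (adjusted p = 0.0873), si-NC replicate 2 (0.0587) or si-RAB23-1 replicate 1 (0.0517). With si-RAB23-9 it was lost without any one of the 4 libraries compared (limma adjusted p 0.0985 to 0.176).

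DGCR8 (ENSG00000128191, chr22:20080232-20111877, plus strand) had 11.35 and 13.005 FPKM with si-RAB23-1, 13.5 and 13.3 FPKM with si-RAB23-9, and 12.5 and 12.7 FPKM with si-NC. The si-RAB23-1 libraries lay on both sides of the si-NC libraries. The limma log2 fold change was -0.05 with si-RAB23-1 (95% interval -0.21 to 0.11, adjusted p = 0.669) and 0.09 with si-RAB23-9 (95% interval -0.08 to 0.25, adjusted p = 0.443). Without si-RAB23-1 replicate 2 the difference between si-RAB23-9 and si-RAB23-1, 0.13 with all libraries (adjusted p = 0.203), was 0.22 and passed the limma test (adjusted p = 0.0332). The FPKM of DROSHA was 1.40 and 1.13 times that of DGCR8 with si-RAB23-1, 1.05 and 1.05 times with si-RAB23-9, and 0.901 and 0.951 times with si-NC. An exon of DGCR8 holds the hairpins MIR3618 and MIR1306, which the Microprocessor is known to cut from the DGCR8 messenger itself, and both are listed at 0 in every library. DGCR8 also shares 12 exon bases with TRMT2A on the opposite strand.

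Of the export step, XPO5 (ENSG00000124571, chr6:43522330-43576075, minus strand) had 13.3 and 12.2 FPKM with si-RAB23-1, 11.6 and 11.9 FPKM with si-RAB23-9, and 11.04 and 10.49 FPKM with si-NC. No library of either RAB23 siRNA reached down to the si-NC values. XPO5 rose with si-RAB23-1 by 0.22 (SE 0.0552, limma adjusted p = 0.0497), just inside the threshold, and differed by 0.12 with si-RAB23-9 (95% interval -0.02 to 0.25, adjusted p = 0.233). The direct difference between the siRNAs missed the threshold (-0.11, 95% interval -0.24 to 0.03, limma adjusted p = 0.225). The call held without si-RAB23-1 replicate 2 (limma adjusted p = 0.0418) and was lost without any one of the other 5 libraries (0.0921 to 0.215). The XPO5 exons share 348 bases (4.08%) with POLR1C on the opposite strand, which reached 5.47 FPKM, and none of the sources used here gives the strandedness of the libraries, so some reads could belong to either gene.

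Dicer showed the largest change among the 10 genes against si-NC. DICER1 (ENSG00000100697, chr14:95086228-95158010, minus strand) had 7.06 and 6.46 FPKM with si-RAB23-1, 9.46 and 8.43 FPKM with si-RAB23-9, and 11.03 and 11.46 FPKM with si-NC. The 3 groups did not overlap, with si-RAB23-1 lowest and si-RAB23-9 between. These values rest on 3205, 4037 and 5991 recovered reads per group of 2 libraries. The means were 0.601 times that of si-NC with si-RAB23-1 and 0.796 times with si-RAB23-9. In limma, DICER1 fell by 0.66 on the log2 scale with si-RAB23-1 (SE 0.0687, adjusted p = 0.00547) and by 0.30 with si-RAB23-9 (SE 0.0687, adjusted p = 0.0429). It was 0.36 higher with si-RAB23-9 than with si-RAB23-1 (SE 0.0687, adjusted p = 0.0208).

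The fall of DICER1 with si-RAB23-1 held in 5 of 6 fits that left out 1 library and was at a limma adjusted p of 0.0509 without si-NC replicate 2. The fall with si-RAB23-9 was lost without any one of the 4 libraries compared (limma adjusted p 0.0736 to 0.195). The difference between the siRNAs was lost without si-RAB23-1 replicate 2 (limma adjusted p = 0.0624) or si-RAB23-9 replicate 1 (0.0929). DICER1-AS1, an antisense gene that shares 80 exon bases with DICER1, stayed at or under 0.786 FPKM.

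DROSHA and DICER1 encode the 2 RNase III enzymes that cut a microRNA precursor in turn, and their transcripts moved in opposite directions. FPKM is per length, so the genes can be set side by side: DROSHA was at 2.25 and 2.27 times DICER1 with si-RAB23-1, at 1.505 and 1.653 times with si-RAB23-9, and at 1.02 and 1.06 times with si-NC. The libraries of the 3 groups did not overlap in this ratio. That follows from the levels, since each gene alone set the groups apart, in opposite order, and it is no further result. No test was made of the ratio itself.

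**Figure D3:**
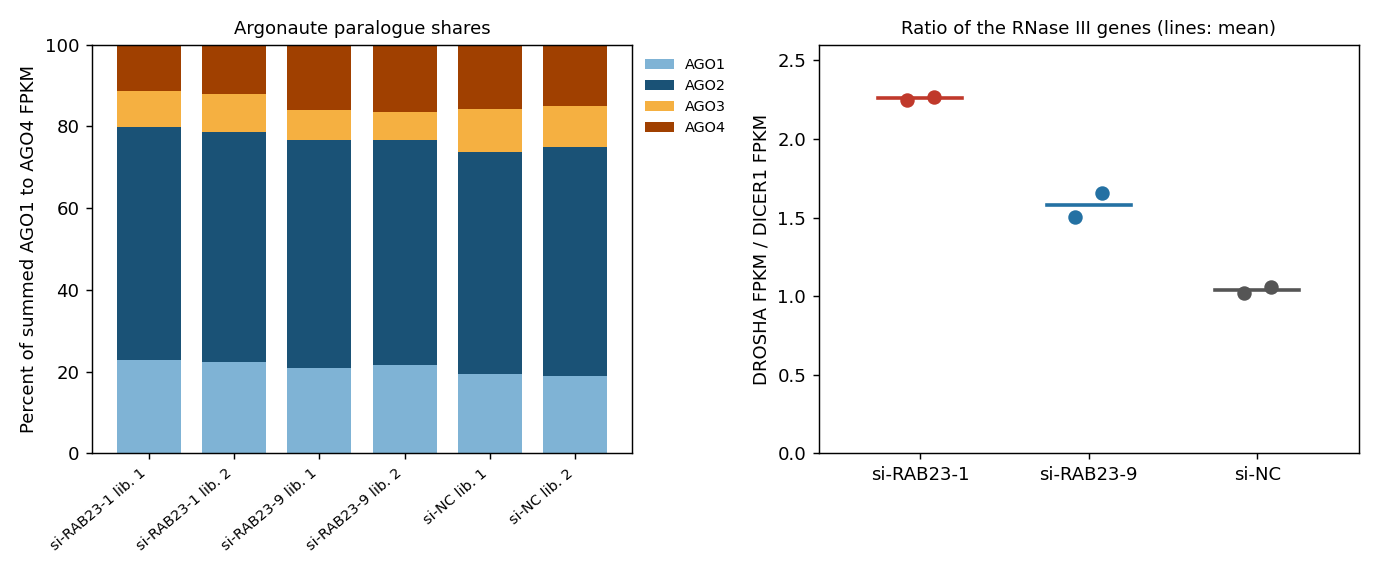
Left, the share of each Argonaute gene in the summed FPKM of AGO1 to AGO4 for each library (stacked bars, 0 to 100%); right, DROSHA FPKM divided by DICER1 FPKM (points, libraries; lines, group means; axis from 0). The AGO4 share is smallest in the si-RAB23-1 libraries, and the ratio is about 2.26 with si-RAB23-1, 1.58 with si-RAB23-9 and 1.04 with si-NC.

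Among the Argonautes, AGO4 fell with si-RAB23-1, AGO3 fell with si-RAB23-9, and AGO1 and AGO2 passed no limma test. AGO4, AGO1 and AGO3 lie in a cluster on chromosome 1, in this order, with 11917 bases between AGO4 and AGO1 and 189 between AGO1 and AGO3. AGO4 (ENSG00000134698, chr1:35808172-35857890, plus strand) had 3.63 and 3.81 FPKM with si-RAB23-1, 5.67 and 5.92 FPKM with si-RAB23-9, and 5.43 and 5.26 FPKM with si-NC. The si-RAB23-1 libraries were far below the other 4, while the si-RAB23-9 libraries lay just above si-NC.

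AGO4, an Argonaute with no known cutting activity in human cells, fell by 0.43 in limma with si-RAB23-1 (SE 0.0511, adjusted p = 0.00752), to 0.696 times the si-NC mean. With si-RAB23-9 its difference from si-NC was 0.10 (95% interval -0.03 to 0.22, adjusted p = 0.267). The direct difference of 0.52 between si-RAB23-9 and si-RAB23-1 (SE 0.0511, limma adjusted p = 0.00345) held in 6 of 6 fits that left out 1 library. The fall with si-RAB23-1 was lost without si-NC replicate 1 (limma adjusted p = 0.0609) or si-NC replicate 2 (0.0544).

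AGO3 (ENSG00000126070, chr1:35930718-36072500, plus strand) had 2.90 and 2.89 FPKM with si-RAB23-1, 2.605 and 2.379 FPKM with si-RAB23-9, and 3.63 and 3.51 FPKM with si-NC. All libraries of the RAB23 siRNAs lay below si-NC, and those of si-RAB23-9 were lowest. AGO3 fell by 0.39 with si-RAB23-9 (SE 0.0628, limma adjusted p = 0.0166), to 0.698 times the si-NC mean. With si-RAB23-1 its limma log2 fold change of -0.23 (95% interval -0.39 to -0.08) missed the threshold (adjusted p = 0.0627), and the direct difference between the siRNAs was -0.16 (95% interval -0.31 to -0.0036, adjusted p = 0.131). A change of AGO3 in one siRNA group and not in the other is therefore not shown. The fall with si-RAB23-9 was lost without any one of the 4 libraries compared (limma adjusted p 0.0642 to 0.104).

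AGO1 (ENSG00000092847, chr1:35869808-35930528, plus strand) had 7.416 and 6.99975 FPKM with si-RAB23-1, 7.40 and 7.74 FPKM with si-RAB23-9, and 6.65 and 6.62 FPKM with si-NC. Every library of the RAB23 siRNAs was above si-NC, and the limma log2 fold changes were 0.10 (95% interval -0.02 to 0.22, adjusted p = 0.207) with si-RAB23-1 and 0.17 (95% interval 0.05 to 0.29, adjusted p = 0.0797) with si-RAB23-9. AGO2 (ENSG00000123908, chr8:140520156-140635619, minus strand), which supplies the cutting activity, had 18.4 and 17.8 FPKM with si-RAB23-1, 19.8 and 19.6 FPKM with si-RAB23-9, and 18.7 and 19.6 FPKM with si-NC. Its limma log2 fold change was -0.08 with si-RAB23-1 (95% interval -0.18 to 0.02, adjusted p = 0.232) and 0.04 with si-RAB23-9 (95% interval -0.06 to 0.14, adjusted p = 0.562), the last of which was -0.0034 after quantile normalization.

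AGO2 made up most of the summed Argonaute FPKM in every library, at 56.8% and 56.5% with si-RAB23-1, 55.8% and 55.1% with si-RAB23-9, against 54.4% and 56.0% with si-NC. The AGO4 share was 11.2% and 12.1% with si-RAB23-1, 16.0% and 16.6% with si-RAB23-9, against 15.76% and 15.04% with si-NC. AGO3 took 8.98% and 9.19% with si-RAB23-1, 7.34% and 6.67% with si-RAB23-9, against 10.55% and 10.04% with si-NC. The AGO1 share was higher in all libraries of the RAB23 siRNAs, at 22.96% and 22.24% (si-RAB23-1), 20.9% and 21.7% (si-RAB23-9), against 19.3% and 18.9% with si-NC. Summed over the 4 genes, FPKM came to 32.3 and 31.5 with si-RAB23-1, 35.5 and 35.7 with si-RAB23-9, against 34.45 and 34.97 with si-NC. These shares are descriptions of single libraries, and no share was tested.

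Of the GW182 genes, TNRC6B fell with si-RAB23-1 and TNRC6A passed no limma test. TNRC6B (ENSG00000100354, chr22:40044817-40335808, plus strand) had 2.80 and 2.78 FPKM with si-RAB23-1, 3.25 and 3.48 FPKM with si-RAB23-9, and 3.944 and 3.801 FPKM with si-NC, with no overlap between the groups. It fell by 0.36 with si-RAB23-1 (SE 0.0581, limma adjusted p = 0.0157), to 0.720 times the si-NC mean. With si-RAB23-9 it stood at -0.16 (95% interval -0.30 to -0.01, limma adjusted p = 0.138), and si-RAB23-9 minus si-RAB23-1 was 0.21 (95% interval 0.06 to 0.35, adjusted p = 0.0586), just outside the threshold. The call with si-RAB23-1 was lost without si-NC replicate 1 (limma adjusted p = 0.0982), si-NC replicate 2 (0.0846) or si-RAB23-1 replicate 1 (0.058).

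TNRC6A (ENSG00000090905, chr16:24610209-24827632, plus strand) had 15.5 and 14.9 FPKM with si-RAB23-1, 14.5 and 13.9 FPKM with si-RAB23-9, and 15.2 and 16.1 FPKM with si-NC. Its limma log2 fold change was -0.04 with si-RAB23-1 (95% interval -0.16 to 0.08, adjusted p = 0.641), which was 0.0031 without si-NC replicate 2, and -0.13 with si-RAB23-9 (95% interval -0.25 to -0.0075, adjusted p = 0.148). TNRC6A was at 5.53 and 5.37 times the FPKM of TNRC6B with si-RAB23-1, 4.468 and 4.001 times with si-RAB23-9, and 3.84 and 4.24 times with si-NC.

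The 7-mers were then set against these changes. Both genes with GACATAT, DICER1 and AGO4, fell with si-RAB23-1 and were higher with si-RAB23-9 than with si-RAB23-1. In all genes scanned, 229 of 839 with GACATAT (27.3%) fell under si-RAB23-1, and 7.14% of those lacking it did. Of the 839 carriers 28.2% were higher with si-RAB23-9 than with si-RAB23-1, against 12.5% of the others. Both comparisons use the same si-RAB23-1 libraries, so the second is no separate support. Since the 7-mers were picked from these same data, a higher share lower among carriers was built in. Carriers were also not matched to the others by 3' UTR length, here or for AAGTTAA. The 2 copies in DICER1 were in 3 of its 7 annotated transcripts with a 3' UTR, and those of AGO4 in its only one. TNRC6B, the third gene that fell with si-RAB23-1, held no GACATAT, and DICER1, which also fell with si-RAB23-9, held no AAGTTAA.

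Of the 4 genes with AAGTTAA, AGO3 fell with si-RAB23-9 and DROSHA rose, while TNRC6B (-0.16) and AGO1 (0.17) did not pass the test. In all genes scanned, 336 of 1845 with AAGTTAA (18.2%) fell under si-RAB23-9, and 4.29% of those lacking it did, and 3.69% of carriers rose, against 10.5%. AAGTTAA was in 1 of 3 transcripts of AGO3, 3 of 5 of TNRC6B, 3 of 4 of DROSHA and 1 of 2 of AGO1. Another 7-mer of the earlier analysis, TCGGAGA, was held by 2.24% of 3' UTRs and by none of the 10 genes. No mature human microRNA among 2545 RefSeq entries had a seed complementary to all 7 bases of GACATAT or AAGTTAA. Shorter seed matches were not searched. Whether an siRNA used here matches either 7-mer was not tested.

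**Figure D4:**
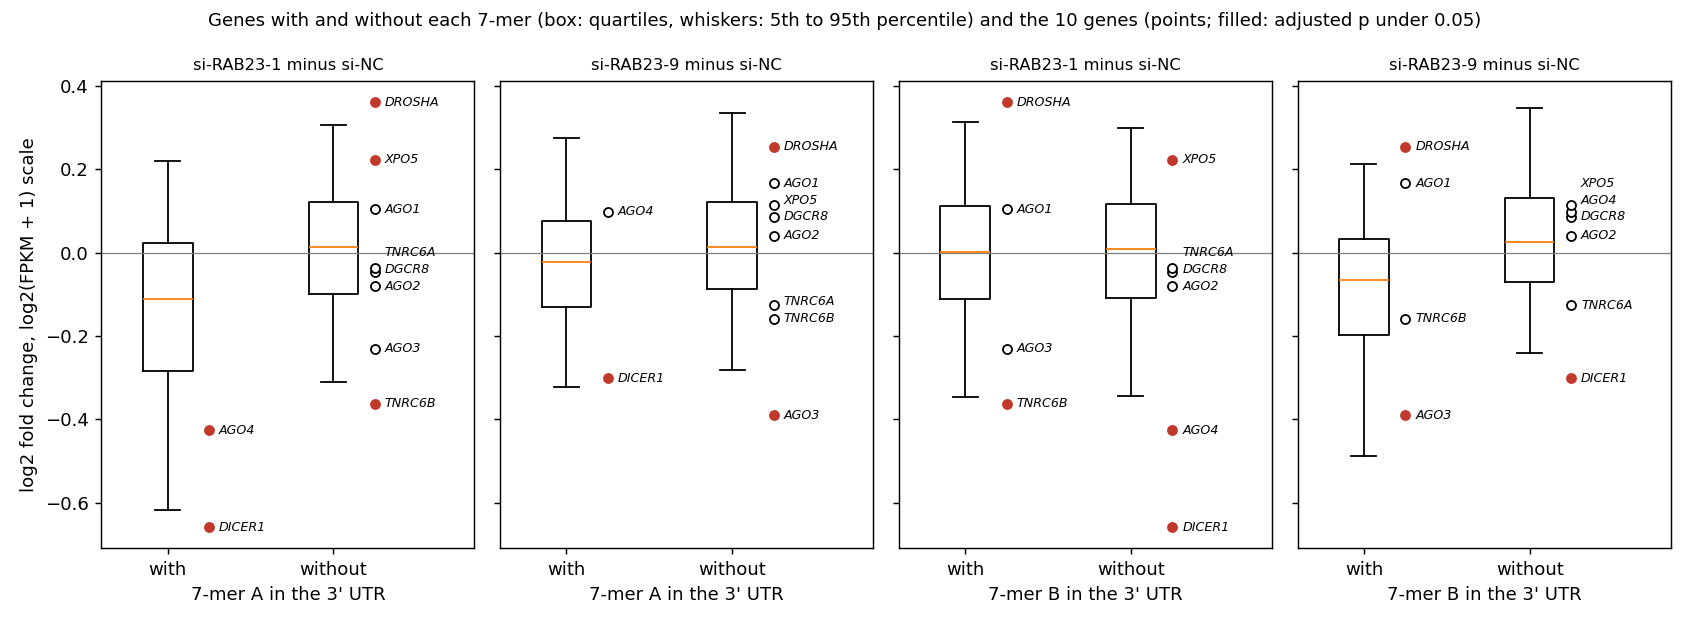
Log2 fold change on the log2(FPKM + 1) scale of genes with and without 7-mer A (GACATAT) or 7-mer B (AAGTTAA) in the 3' UTR (boxes, quartiles and median; whiskers, the 5th and 95th percentiles), with the 10 genes as points, filled where the limma adjusted p was under 0.05. DICER1 and AGO4 are the 2 points beside the 7-mer A carriers, whose median was -0.11 with si-RAB23-1, and DROSHA lies above the 7-mer B carriers, whose median was -0.06 with si-RAB23-9.

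Genes that act beside the 10 were taken from 6 further lists. Their limma counts stand beside 15.4% of all genes called with si-RAB23-1 (8.13% higher, 7.26% lower). For si-RAB23-9 the share was 13.3% (7.56% higher, 5.69% lower), and between the siRNAs 21% (11.1% higher, 9.89% lower). The first holds 12 genes of pre-miRNA tailing and small RNA turnover. Of the 11 tested, 1 rose and 4 fell with si-RAB23-1, 3 fell with si-RAB23-9, and si-RAB23-9 gave 4 higher and 2 lower than si-RAB23-1 did. With si-RAB23-9 no gene of the list rose by limma, against 1 (PNPT1) at an unadjusted p under 0.05 and by voom. The list's median log2 fold change was 0.02 with si-RAB23-1 and -0.0083 with si-RAB23-9, close to the medians of all genes. LIN28A, the paralogue of LIN28B, did not pass the filter.

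LIN28B, which binds let-7 precursors and blocks their cutting by Dicer, had 1.87 and 1.99 FPKM with si-RAB23-1, 2.87 and 2.84 FPKM with si-RAB23-9, and 4.44 and 4.14 FPKM with si-NC. The 3 groups stood apart in the same order as for DICER1. LIN28B fell by 0.85 with si-RAB23-1 (SE 0.0633, limma adjusted p = 0.00295) and by 0.46 with si-RAB23-9 (SE 0.0633, adjusted p = 0.0113), and was 0.39 higher with si-RAB23-9 than with si-RAB23-1 (adjusted p = 0.013), a call held in 3 of 6 fits that left out 1 library (highest adjusted p 0.0735). ERI1, an exonuclease that trims histone messengers and small RNAs, had 7.87 and 7.37 FPKM with si-RAB23-1, 13.4 and 13.5 FPKM with si-RAB23-9, and 14.4 and 14.9 FPKM with si-NC. Its level with si-RAB23-1 was 0.520 times that of si-NC (log2 fold change -0.86, limma adjusted p = 0.00184). The calls of LIN28B and ERI1 with si-RAB23-1 held in 6 of 6 fits that left out 1 library.

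TENT2, a poly(A) polymerase that extends microRNA ends, and TUT7, a uridyltransferase of let-7 precursors, fell by 0.50 (limma adjusted p = 0.00912) and 0.36 (adjusted p = 0.0229) with si-RAB23-1. Both were higher with si-RAB23-9 than with si-RAB23-1, by 0.41 and 0.42 (limma adjusted p = 0.0119 and 0.0125), calls that held in 3 of 6 such fits for TENT2 (highest adjusted p 0.0762, without si-RAB23-9 replicate 2) and 4 of 6 for TUT7 (highest 0.0647, without si-RAB23-9 replicate 1). TUT4, which shares the activity of TUT7, had 6.34 and 6.35 FPKM with si-RAB23-1, 5.78 and 6.02 FPKM with si-RAB23-9, and 5.98 and 5.90 FPKM with si-NC, and did not pass. With si-RAB23-9, XRN2 and ZSWIM8, a nuclear exonuclease and the substrate receptor of the ligase that removes Argonautes on certain targets, fell by 0.30 (limma adjusted p = 0.00935) and 0.31 (adjusted p = 0.0249). ZSWIM8 stood at -0.23 with si-RAB23-1 (limma adjusted p = 0.0516), and its direct difference between the siRNAs missed the threshold (adjusted p = 0.369). Without si-NC replicate 2 the TENT2 call with si-RAB23-1 was lost (limma adjusted p = 0.0527). That of TUT7 was lost without any one of the 4 libraries compared (0.0549 to 0.120), as were those of LIN28B (0.0672 to 0.0825), ZSWIM8 (0.0782 to 0.132) and XRN2 (0.0593 to 0.0782) with si-RAB23-9.

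**Figure D5:**
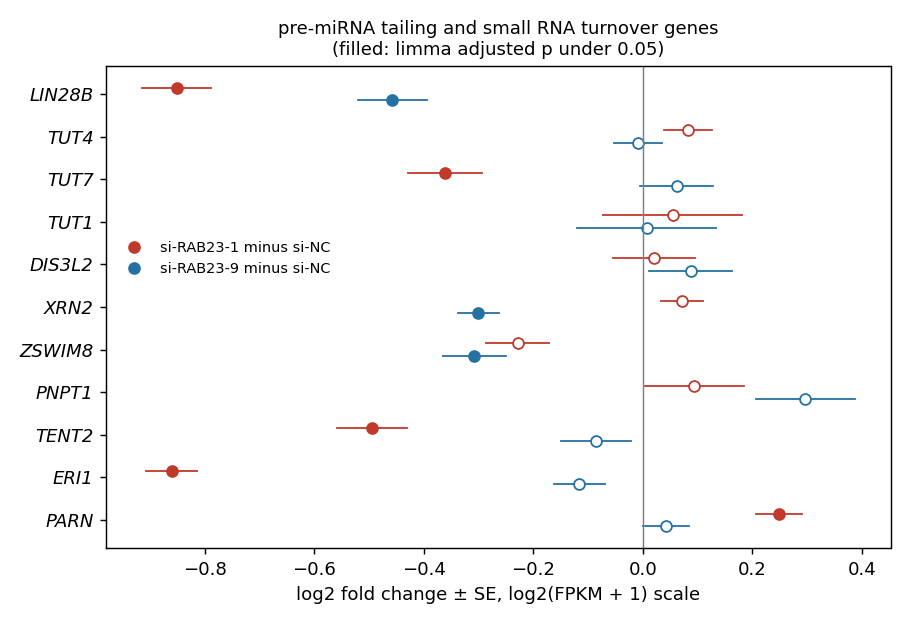
Log2 fold change (± SE) on the log2(FPKM + 1) scale of the 11 tested genes of pre-miRNA tailing and small RNA turnover, for si-RAB23-1 (red) and si-RAB23-9 (blue) against si-NC; filled points have a limma adjusted p under 0.05. LIN28B and ERI1 lie farthest left with si-RAB23-1 (-0.85 and -0.86), and LIN28B also with si-RAB23-9 (-0.46).

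Genes that work with Dicer or load Argonautes numbered 22, all tested. By limma, 3 rose and 1 fell with si-RAB23-1, 4 rose and 4 fell with si-RAB23-9, and si-RAB23-9 gave 3 higher and 3 lower than si-RAB23-1 did. By voom on library totals, 4 were higher and 7 lower with si-RAB23-1, so the balance of the 2 directions there depends on the tool. The list's median was 0.04 with si-RAB23-1 and 0.03 with si-RAB23-9. With si-RAB23-1 the chaperone gene HSP90AB1 rose by 0.26, SND1, a nuclease found in RISC, by 0.25 and the co-chaperone gene FKBP4 by 0.22, while FMR1, an RNA-binding protein of neurons and other cells, fell by 0.25 (limma adjusted p 0.00572 to 0.0312). With si-RAB23-9, AJUBA, a LIM protein that binds Argonautes, fell by 0.63, TNPO1, a nuclear import receptor, by 0.60 and TNRC6C, the remaining GW182 gene, by 0.43, while FKBP5 rose by 0.43 (limma adjusted p 0.00377 to 0.0387). TNRC6C had 1.29 and 1.37 FPKM with si-RAB23-1, 1.02 and 0.994 FPKM with si-RAB23-9, and 1.70 and 1.71 FPKM with si-NC. Of these 8 calls, that of AJUBA held in 6 of 6 fits that left out 1 library. The other 7 were lost in at least 1 such fit, with a highest limma adjusted p between 0.0511 (TNPO1 without si-RAB23-9 replicate 2) and 0.178 (TNRC6C without si-NC replicate 2). HSP90AB1 and SND1 also rose with si-RAB23-9, by 0.16 each (limma adjusted p = 0.0199 and 0.0366). Their direct differences between the siRNAs missed the threshold (limma adjusted p = 0.0563 and 0.107). The remaining calls of the list with si-RAB23-9 were AHSA1 (0.34) and HSP90AA1 (-0.25, limma adjusted p = 0.00889 and 0.0470). The Dicer partner genes TARBP2 and PRKRA passed no limma test against si-NC, while voom on library totals called TARBP2 lower with si-RAB23-1. TARBP2 had 6.43 and 7.83 FPKM with si-RAB23-1, 7.56 and 7.30 FPKM with si-RAB23-9, and 7.91 and 8.93 FPKM with si-NC.

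Cofactors of the Microprocessor and regulators of primary transcripts numbered 17, all tested. Of these, 1 rose and 1 fell with si-RAB23-1 and 1 rose with si-RAB23-9, where none fell by limma, against 1 (DDX17) at an unadjusted p under 0.05 and by voom. With si-RAB23-1, 5 were lower at an unadjusted p under 0.05. By voom 7 were lower on library totals but 3 with median-of-ratios sizes, so that count depends on the scaling. Over all genes these voom settings called 2178 and 1915 lower. The cap-binding gene NCBP2 rose by 0.25 and the helicase gene DDX17 fell by 0.16 with si-RAB23-1 (limma adjusted p = 0.0274 and 0.0421). ADAR, the adenosine deaminase of double-stranded RNA and an interferon-induced gene, had 61.0 and 60.3 FPKM with si-RAB23-1, 79.7 and 77.1 FPKM with si-RAB23-9, and 58.1 and 57.4 FPKM with si-NC. It rose by 0.43 with si-RAB23-9 (limma adjusted p = 0.00285) and was 0.37 higher there than with si-RAB23-1 (adjusted p = 0.00271). Both ADAR calls held in 6 of 6 fits that left out 1 library, while those of NCBP2 and DDX17 were lost, with a highest limma adjusted p of 0.135 for NCBP2 without si-NC replicate 1 and 0.193 for DDX17 when si-NC replicate 2 was left out. The median of this list was -0.04 with si-RAB23-1 and -0.0050 with si-RAB23-9.

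Downstream of GW182, 27 of 28 genes of deadenylation and decapping were tested, and DCP1B was listed at 0. By limma, 4 rose and 3 fell with si-RAB23-1, 1 rose and 3 fell with si-RAB23-9, and si-RAB23-9 gave 1 higher and 5 lower than si-RAB23-1 did. By voom on library totals, 5 were higher and 8 lower with si-RAB23-1, against 6 and 7 with median-of-ratios sizes. The list's median was 0.03 with si-RAB23-1 and -0.0031 with si-RAB23-9. TOB1, an adaptor between deadenylases and poly(A)-binding protein, fell by 0.30 with si-RAB23-1 and by 0.57 with si-RAB23-9 (limma adjusted p = 0.0231 and 0.00501). BTG1, of the same family, rose by 0.35 with si-RAB23-1 (limma adjusted p = 0.00693), as did EDC3 by 0.28 and LSM14A by 0.27, both of the decapping machinery (adjusted p = 0.0123 and 0.0202). With si-RAB23-9 the cytoplasmic exonuclease gene XRN1 fell by 0.38 and the decapping enzyme gene DCP2 by 0.31, while TOB2 rose by 0.43 (limma adjusted p = 0.0140, 0.0498 and 0.0173). With si-RAB23-1, XRN1 stood at -0.23, DCP2 at -0.27 and TOB2 at 0.22, short of the threshold (limma adjusted p = 0.0511, 0.0638 and 0.0913). None of them passed the direct test between the siRNAs (limma adjusted p = 0.117, 0.749 and 0.0920). The fall of TOB1 with si-RAB23-9 held in 6 of 6 fits that left out 1 library. The other 7 calls were lost in at least 1 such fit, with a highest limma adjusted p between 0.0546 (BTG1 without si-NC replicate 1) and 0.209 (DCP2 without si-RAB23-9 replicate 2).

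The PIWI genes, which serve a separate small RNA pathway of the germ line, did not pass the filter in any of 4 cases and stayed at or under 0.247 FPKM. Of 14 long transcripts that hold microRNA hairpins, 10 were tested. With si-RAB23-1, MIR4435-2HG rose by 0.39 and MIR205HG by 0.30 (limma adjusted p = 0.0186 and 0.00943), and with si-RAB23-9 MIR22HG fell by 0.73 (adjusted p = 0.00425). The 3 were lower with si-RAB23-9 than with si-RAB23-1, by 0.61, 0.37 and 0.61. The calls of MIR22HG and the 3 direct differences held in 6 of 6 fits that left out 1 library, while MIR4435-2HG and MIR205HG against si-NC reached a limma adjusted p of 0.1002 and 0.0715 in the fits lacking si-NC replicate 1 and si-NC replicate 2. MIR22HG had 9.99 and 8.92 FPKM with si-RAB23-1, 5.73 and 5.91 FPKM with si-RAB23-9, and 10.7 and 9.90 FPKM with si-NC. The list's median was 0.14 with si-RAB23-1 and -0.06 with si-RAB23-9. Host transcripts are not mature microRNAs, whose levels were not analysed here.

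The largest called changes, up to 4 per list and comparison, numbered 46 in these 6 lists over the 3 comparisons. Of these, 13 held without any 1 library and 33 were lost without at least 1. Those that held against si-NC were ERI1 and LIN28B with si-RAB23-1, and AJUBA, ADAR, TOB1 and MIR22HG with si-RAB23-9. Among the list genes, 9 held GACATAT, and 5 of them fell with si-RAB23-1 by limma (CNOT6, ERI1, LIN28B, TENT2 and TUT7), against 8 by voom. The 5 were also those called higher with si-RAB23-9 than with si-RAB23-1, as were 28.2% of all carriers. That comparison uses the same si-RAB23-1 libraries, so it is no separate support. Against si-NC, 3 of the 9 fell with si-RAB23-9 (DCP2, LIN28B and TNRC6C). Of all carriers of GACATAT, 27.3% fell with si-RAB23-1 and 10% with si-RAB23-9. AAGTTAA was held by 22, of which 9 fell with si-RAB23-9 (AJUBA, DCP2, HSP90AA1, LIN28B, TNPO1, TNRC6C, TOB1, XRN1 and XRN2) and 1 rose (FKBP5). With si-RAB23-1, 4 of the 22 fell (CNOT6, LIN28B, TENT2 and TOB1) and 2 rose (BTG1 and FKBP4). Of all carriers of AAGTTAA, 18.2% fell with si-RAB23-9 and 8.56% with si-RAB23-1. Several list genes held both sequences, among them CNOT6, DCP2, LIN28B, TENT2 and TNRC6C, so the 2 sets are not separate.

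The genes most like 5 of the changed members over the 6 libraries were found by Pearson's r of log2(FPKM + 1), which here mostly reflects 3 group levels. For DICER1 they were AC015712.2, CASC4 and AC106897.1 (r = 0.998, 0.997 and 0.995), with 193 genes at r of 0.95 or more. For AGO4 they were PIF1, DAB2IP and MEX3C (0.999, 0.999 and 0.997; 383 genes), and for DROSHA IMP4, ALKBH1 and GPRC5D-AS1 (0.999, 0.996 and 0.995; 191 genes). AGO3 was nearest to LIG4, DCAKD and DIP2B (each 0.996; 134 genes), and TNRC6B to ANKRD13D, CDCA3 and TRIM2 (0.999, 0.998 and 0.998; 171 genes).

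Across the series, any pair of libraries had a Spearman correlation of 0.983 to 0.985 within a group and 0.969 to 0.979 across groups, and 13576 to 13700 genes reached 1 FPKM in a library. Of 9 squamous markers 8 were above 1 FPKM in every library and KRT5 was not. Their summed FPKM was 199 to 207 with si-RAB23-1, 193 to 195 with si-RAB23-9 and 156 to 164 with si-NC, so it moved with the siRNA groups, and its part in the changes described was not tested. Leukocyte and simple columnar markers were below 1 FPKM throughout (0 of 5 and 0 of 4 above), 1 of 5 fibroblast markers was above, with COL1A2, DCN and LUM at 0, and 1 of 4 endothelial markers (CDH5) was above, with KDR at 0. Fibroblast markers summed to 3.38 to 3.49 FPKM with si-RAB23-1, 3.60 to 3.81 with si-RAB23-9 and 3.40 to 3.43 with si-NC. Endothelial markers summed to 1.62 to 2.09 FPKM with si-RAB23-1, 2.73 to 3.16 with si-RAB23-9 and 3.77 to 3.79 with si-NC.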

How the data were processed

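RNA-seq of total RNA from 6 KYSE30 libraries was analysed from 1 deposited table of gene FPKM, in which the authors scaled fragments to gene length and library size. Per the submitters' processing notes, which give no roles, the authors named STAR 2.5.1b, RSEM 1.2.29, edgeR 3.8.5, Trimmomatic 0.36, FastQC and the build hg19. The coordinates of all 58735 genes nevertheless equal those of GENCODE release 29 on GRCh38, the build used here. The table's gene length equals the union of annotated exons for each of the 10 genes. Multiplied by that length, 100% of values were whole reads within 0.01 of a read, which gave the read totals and the input of voom.

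In 27 cases a symbol turned into a date was resolved by gene ID. The 14352 genes that reached 1 FPKM in 2 or more libraries entered a linear model with 1 mean per group over all 6 libraries on log2(FPKM + 1), with eBayes and a mean-variance trend (limma 3.58.1, R 4.3.3, 3 residual degrees of freedom, two-sided). Shared spread across groups was used because 2 libraries per group leave little of their own. The code was tested on simulated data.

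The genes and lists were chosen with earlier results of these data known. Named were all 10 genes, RAB23, up to 4 called genes per list and comparison with the largest change, and the 3 genes most alike each called member (those of XPO5 are not reported here). AHSA1, CNOT6, HSP90AA1, PABPC1, PARN, PNPT1, TUT4, TARBP2 and PRKRA were named after their values were seen. Alternatives were another pseudocount (0.1), no filter, a mean FPKM of at least 5, 2 other scalings, a replicate block, voom on recovered reads (2 library sizes), no trend, only the 2 groups compared, and each library left out.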

Additional observations from a re-analysis of the deposited data

Results flagged for a closer look

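For 2 of the 10 genes the changes with the siRNAs differed by the direct test (si-RAB23-9 minus si-RAB23-1, limma on all genes, log2(FPKM + 1) scale). Over all genes tested, 21% differed by this test (11.1% higher, 9.89% lower), so 2 of 10 is close to that share. AGO4 differed by 0.52 and DICER1 by 0.36 (adjusted p = 0.00345 and 0.0208), both with 2 of 2 si-RAB23-9 libraries above both si-RAB23-1 libraries.

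For 23 genes of the further lists the changes also differed by this test, 9 higher and 14 lower with si-RAB23-9. These lists held 22, 17, 11, 27 and 10 tested genes, and 21% of all genes were called. Higher were ERI1 by 0.74, TUT7 by 0.42, TENT2 by 0.41, LIN28B by 0.39, ADAR by 0.37, FKBP5 by 0.28, FMR1 by 0.26, CNOT6 by 0.26 and AHSA1 by 0.17. Lower were AJUBA (-0.80), MIR22HG (-0.61), MIR4435-2HG (-0.61), TNPO1 (-0.47), BTG1 (-0.47), MIR205HG (-0.37), XRN2 (-0.37), HSP90AA1 (-0.32), DCP1A (-0.32), LSM14A (-0.31), NCBP2 (-0.30), TOB1 (-0.27), PARN (-0.21) and PABPC1 (-0.13). The limma adjusted p-values lay between 0.00133 (ERI1) and 0.0401 (FKBP5). In 6 fits that each left out 1 library, 8 of the 23 calls held throughout (ADAR, AJUBA, BTG1, ERI1, MIR205HG, MIR22HG, MIR4435-2HG and XRN2) and 15 were lost at least once. FKBP5 (limma adjusted p 0.0623 to 0.173) and AHSA1 (0.0548 to 0.179) were lost in 6 of 6, while TOB1, PARN and PABPC1 held in 1 of 6 (highest 0.120, 0.127 and 0.153). CNOT6 held in 2 of 6, and DCP1A, FMR1, LIN28B and TENT2 in 3 of 6. HSP90AA1, LSM14A, NCBP2 and TUT7 held in 4 of 6, and TNPO1 in 5 of 6. Groups of 2 libraries are too small for a search for single outlying libraries.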

How the results depend on the processing

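Leaving out 1 library at a time, with a lone library assumed to vary like the other groups, most limited the calls. Of the 10 genes, the fits without 1 library called 0 to 2 higher and 0 to 3 lower with si-RAB23-1 (2 and 3 with all libraries), 0 to 1 higher and 0 to 2 lower with si-RAB23-9 (1 and 2), and 1 to 2 higher with si-RAB23-9 than with si-RAB23-1 (2). Over all genes they called 173 to 954 higher and 165 to 866 lower with si-RAB23-1, 143 to 1173 higher and 115 to 902 lower with si-RAB23-9, and 375 to 1376 higher and 330 to 1315 lower between si-RAB23-9 and si-RAB23-1. The 6 results were also counted with other settings. With si-RAB23-1, 1 of the 10 was higher without a filter, with median-of-ratios scaling, quantile normalization, the replicate block, no trend or only the 2 groups, and lower were 1 under the stricter filter (mean FPKM of at least 5), where AGO3, AGO4 and TNRC6B leave the test, but 5 by voom on library totals. With si-RAB23-9, 0 were higher without a filter, with quantile normalization, the block or no trend, and 2 by either voom. Lower with si-RAB23-9 were 0 without a filter, 1 at a mean FPKM of at least 5, with the block or with no trend, and 4 by either voom. Between si-RAB23-9 and si-RAB23-1, 1 was higher without a filter or under the stricter one, 5 by voom on library totals, 4 by voom on median-of-ratios sizes, and 1 was lower by either voom. Over all genes, calls without a filter were 543 higher and 506 lower with si-RAB23-1, 552 and 431 with si-RAB23-9, and 771 and 687 between the siRNAs. Voom on library totals called 2178 lower for si-RAB23-1, 1872 higher and 1536 lower with si-RAB23-9, and 2695 higher between the siRNAs. With median-of-ratios sizes it called 1879 higher and 1915 lower under si-RAB23-1, 1802 higher and 1605 lower under si-RAB23-9. No trend gave 744 higher with si-RAB23-1 and 719 with si-RAB23-9, and only the 2 groups gave 633 and 601 with si-RAB23-1 and 1036 and 883 between the siRNAs. Reversed in sign, none past the threshold, were DGCR8 with si-RAB23-1 (-0.1378 to 0.04315 over the fits without 1 library, highest without si-RAB23-1 replicate 1), TNRC6A with si-RAB23-1 (-0.07887 to 0.003115, highest without si-NC replicate 2) and AGO2 with si-RAB23-9 (-0.00337 after quantile normalization). The cause of these differences was not tested. Titles number the libraries 1 and 2, and deviations of same-numbered libraries correlated at -0.0562, -0.0158 and 0.061 in the 3 comparisons. The labels do not say whether same-numbered libraries were handled together, and correlations over all genes cannot decide it. With the number as a block, limma called 856 higher and 799 lower with si-RAB23-1, 828 and 609 with si-RAB23-9, and 1299 and 1124 between the siRNAs. Results other than the called counts of the 10 genes and of all genes were labelled once per setting, list counts among them. Of these labels, 1413 were the same, 194 fell short of the threshold, 17 newly passed it and 3 reversed. The other 147 were moved, a label used for counts.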
